A study of Glycine max with 23 samples.

Results

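miR167 is a microRNA family of plants, and 4 of its soybean members are described here across 23 organs and stages: miR167a, miR167c, miR167e and miR167k. They were chosen by name (gma-MIR167a, gma-MIR167c, gma-MIR167e and gma-MIR167k), not by level, though with earlier results of these data known. They are 4 of the 2839 distinct mature sequences in a table of soybean miRNAs. Entries with the same mature sequence were merged into 1 item, so each member stands for every locus that gives its sequence. No entry of the table has miR167k as its name. That member was found by its older name, which the table gives for the locus M0732.

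A microRNA is a short RNA that guides an Argonaute protein to messenger RNAs with a matching site, which are then cut or less translated. miR167 is known from Arabidopsis to act on the messengers of ARF6 and ARF8, transcription factors of the auxin response that promote the ripening of petals, stamens and carpels. In soybean, miR167c is known to act on ARF8 genes in roots, where it promotes nodules and lateral roots.

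The libraries came from soybean (Glycine max) cv. Williams 82, with no treatment and no biological replicates. Each library is 1 organ at 1 stage. Seeds were taken at weeks 6, 8 and 10 and pods at weeks 1, 2 and 3. Flowers were taken as flower bud, bud before flowering, florescence, florescence on another date, and 5 days after flowering. The 6 leaf libraries were old and new leaf of trefoil plants, old and new leaf from the time when flower buds formed (below, bud stage), senescent leaf, and new leaf of germinating seedlings. Single or paired libraries came from cotyledon (old cotyledon at trefoil, and cotyledon at germination), stem (trefoil and germination), germination root, and the leaf bud, also from the bud stage. The organ was taken from each label and was not checked against markers.

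The mature sequences differ by so little that the last bases decide which member a read is counted for. They are shown 5′ to 3′ with T for U, and bases 2 to 8, the seed that leads target pairing, are in capitals. The 22 nt sequences miR167g and M4031-5p are shown with them because each extends a member.
miR167a: tGAAGCTGccagcatgatcta
miR167c: tGAAGCTGccagcatgatctg
miR167g: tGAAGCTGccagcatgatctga
miR167e: tGAAGCTGccagcatgatctt
M4031-5p: tGAAGCTGccagcatgatctta
miR167k: tGAAGCTGccagcctgatctt
All 6 share the seed, and no other sequence of the 2839 holds it. Counted from the 5′ end and relative to miR167a, miR167c differs by A21G, miR167e by A21T, and miR167k by A14C and A21T. miR167c is identical to the first 21 bases of miR167g, and miR167e to the first 21 bases of M4031-5p.

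The loci are given as the table has them, and its genome build is not given in the sources used here. The miR167a sequence is listed at MIR167a (chr19:41871231-41871349, plus strand), MIR167b (chr2:14635614-14635734, minus strand) and MIR167d (chr10:2640270-2640390, plus strand). The miR167c sequence is listed at MIR167c (chr7:39778512-39778886, plus strand), MIR167j (chr20:44765096-44765173, plus strand) and a Glycine soja entry without coordinates. The miR167e sequence is listed at MIR167e (chr20:37901896-37902004, plus strand) and MIR167f (chr10:46574250-46574358, minus strand). The miR167k sequence has 1 locus (chr2:307523-307611, minus strand). M4031-5p lies on the same hairpins as miR167e and miR167f (chr10:46574261-46574350, minus strand, and chr20:37901904-37901993, plus strand). miR167g has a locus of its own (chr10:39044877-39044954, plus strand), and a tag of 21 bases from it cannot be told from miR167c.

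Levels are in TP5M, tags per 5000000 sequenced tags, a scale that the authors used and that sets each library to the same tag total. It does not correct for the share of tags that the table's sequences take, or for how well each sequence is captured. Library totals ran from 3625216 tags in leaf bud to 6743486 in germination cotyledon, so 1 read was worth 0.742 to 1.38 TP5M, and a sequence without a read could still be present at up to 2.22 to 4.14 TP5M, the worth of 3 reads. All sequences of the table took 2.04% (root) to 17.5% of a library's tags. Columns were matched to libraries by the number in the sample titles. The labels hold another number in brackets that would give another match, and the mean correlation within and between organs was 0.833 and 0.728 by title, and 0.762 and 0.739 by bracket. A set of 6 libraries (the 3 pods, old leaf at trefoil, and old and new leaf at bud stage) shares 3 sequences found in no other library. The part of that difference in the results was not tested except where values are given. Less RNA per cell and fewer cells that make a miRNA cannot be told apart in these whole organs.

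The most abundant member was miR167e, with a mean of 6836 TP5M over the 23 libraries and rank 14 of all sequences. miR167c averaged 1561 TP5M (rank 44), miR167a 1284 TP5M (rank 50) and miR167k 6.31 TP5M (rank 534). The 22 nt M4031-5p averaged 12969 TP5M (rank 6), above its 21 nt form miR167e. miR167a, miR167c and miR167e were found in all 23 libraries and miR167k in 14. Each member had its highest value in another organ. For miR167e it was seed at week 6, with 34908 TP5M, and for miR167c old cotyledon, with 8401 TP5M. The leaf bud had the highest miR167a value, 4670.05 TP5M, and the bud before flowering the highest miR167k value, 54.1 TP5M. Between its highest and lowest library miR167e ranged 2132-fold, miR167c 1319-fold and miR167a 30.5-fold. The lowest library was trefoil stem for miR167e (16.4 TP5M) and miR167c (6.37 TP5M), and root for miR167a (153 TP5M).

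**Figure D1:**
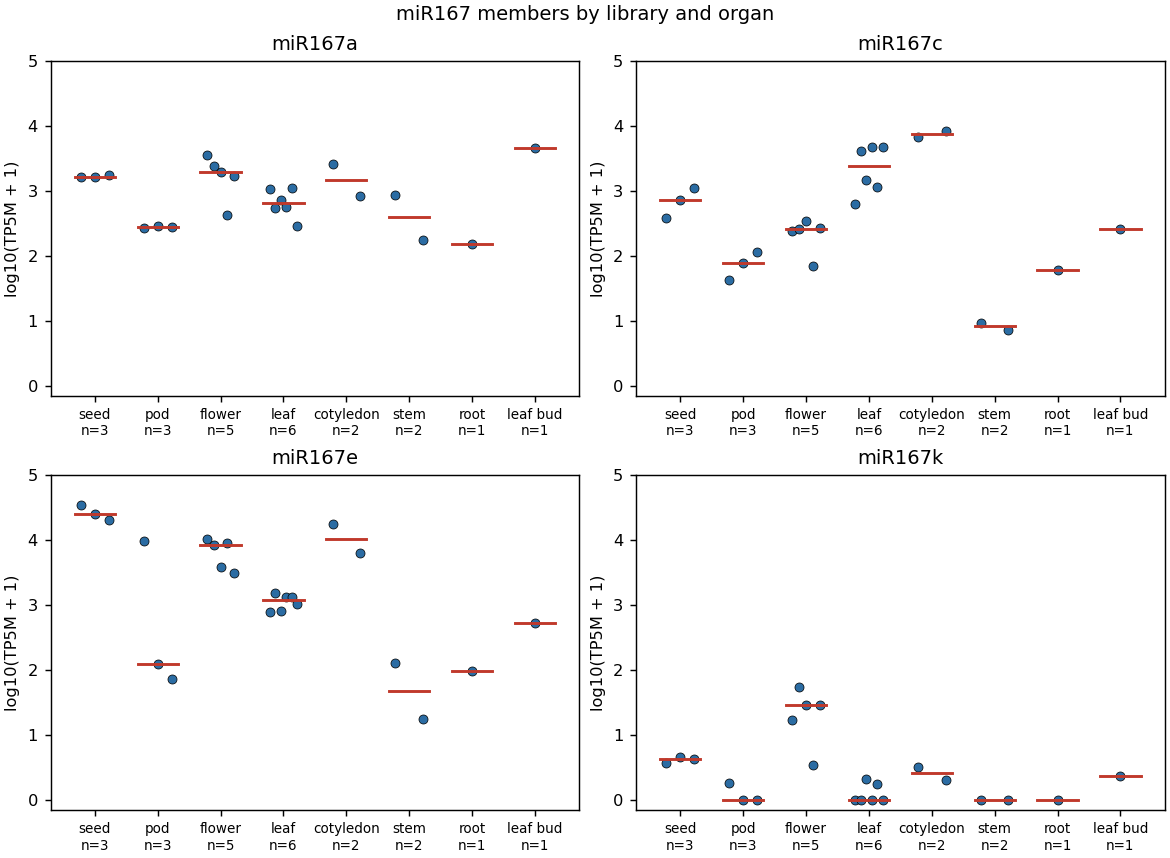
Level of each miR167 member in every library, as log10(TP5M + 1), by organ; each point is 1 library and the red line the median of the organ on that scale. miR167e is highest in seed, miR167c in cotyledon and leaf, miR167a in the leaf bud, and miR167k is above 5 TP5M in flowers alone; 1 pod, that of week 1, stands at 9603 TP5M for miR167e, with the other pods at 125 and 70.7 TP5M.

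miR167e was a seed, flower and cotyledon sequence. It had 34908, 25546 and 20399.7 TP5M in seeds of weeks 6, 8 and 10. Pods had 9603 TP5M at week 1, 125 at week 2 and 70.7 at week 3. Flowers had 10495 TP5M in the flower bud, 8415 in the bud before flowering, 3858 in florescence, 8940.3 on the other date and 3126 at 5 days. Every seed library was above every other library of the series. In leaf, the values were 1519 and 799.99 TP5M in old and new leaf at trefoil, 1332 and 1355 in old and new leaf at bud stage, 1053 in senescent leaf and 772 in germination leaf. The cotyledon had 6257 TP5M at trefoil and 17884 at germination, the stem 16.4 at trefoil and 128 at germination, the leaf bud 535 and the root 97.4. By mean TP5M the order was seed, cotyledon, flower, pod, leaf, leaf bud, root and stem, and seed alone overlapped with no other organ. Pod overlapped with every organ but seed, cotyledon with flower, and stem with root.

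miR167a was spread more evenly and was highest in buds. The leaf bud had 4670.05 TP5M. Flowers had 3569.9 TP5M in the flower bud, 2383 in the bud before flowering, 1937 in florescence, 430.2 on the other date and 1685 at 5 days. Apart from the other date, flowers stood above all leaf libraries. Seeds had 1657, 1669.6 and 1786 TP5M at weeks 6, 8 and 10, and pods 265, 289 and 279 TP5M at weeks 1, 2 and 3. The seeds lay within 1.08-fold of each other (95% counting interval of week 10 over week 6, 1.01 to 1.15) and the pods differed by less than counting error. Leaves had 292 to 1099 TP5M. Cotyledons had 823 TP5M at trefoil and 2579.6 at germination, stems 176 at trefoil and 874 at germination, and the root 153. By mean the order was leaf bud, flower, seed, cotyledon, leaf, stem, pod and root, in which flower, seed and cotyledon overlapped. Leaf and stem overlapped with each other and with flower and cotyledon, and pod overlapped with stem.

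miR167c was a leaf and cotyledon sequence. Old cotyledon had 8401 TP5M and germination cotyledon 6730.25 TP5M. Old leaf had 4098 TP5M at trefoil and 4689 at bud stage, and senescent leaf had 4761. New leaf had 634 TP5M at germination, 1477 at trefoil and 1155 at bud stage. Old and senescent leaves were thus all above new ones. Seeds had 381, 717 and 1126 TP5M at weeks 6, 8 and 10, pods 41.4, 77.1 and 113 at weeks 1, 2 and 3, and flowers 68.0 to 339.9. The leaf bud had 259 TP5M, the root 59.9, and the stems 6.37 at trefoil and 8.45 at germination, or 7 and 10 reads. By mean the order was cotyledon, leaf, seed, leaf bud, flower, pod, root and stem. Of these, seed overlapped with leaf, flower with leaf bud and pod, and pod with root.

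miR167k was rare and found mostly in flowers. It had 16.0 TP5M in the flower bud, 54.1 in the bud before flowering, 28.0 in florescence, 2.47 on the other date and 27.6 at 5 days. Those 5 libraries held 129 of its 146 reads. Seeds had 2.70, 3.56 and 3.35 TP5M, which is 9 reads in all. Pods held 1 read, leaves 2, cotyledons 4 and the leaf bud 1, at or under the worth of 3 reads in every library, and none was found in stem or root. miR167k passed the minimum mean of 5 TP5M for testing through the flowers alone: its mean over the 18 other libraries was 0.94 TP5M.

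The differences between seed, pod, flower and leaf were tested with limma on log2(TP5M + 5) for 595 sequences that averaged 5 TP5M or more, with p-values adjusted over all 595 by the Benjamini-Hochberg method. A sequence is called where the adjusted p is under 0.05. The spread behind each test is that between stages of an organ, not between plants. All 4 members passed the minimum mean. The moderated F-test over the 4 organs called each of them, with adjusted p of 0.0143 for miR167a, 0.000121 for miR167c, 0.00218 for miR167e and 0.000502 for miR167k. It called 39.5% of all sequences. miR167k was tested at all because of its level in flowers. Its F-test, which includes flower, and its differences from flower are given as a description and support nothing.

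**Figure D2:**
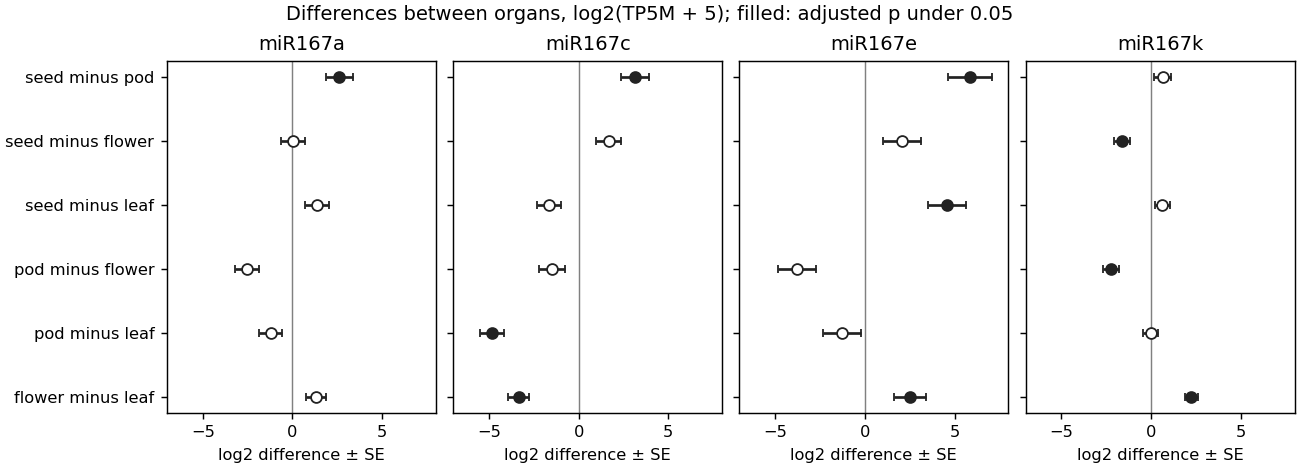
Log2 difference ± SE of each member in the 6 comparisons between seed, pod, flower and leaf, on the log2(TP5M + 5) scale; filled points have an adjusted p under 0.05. miR167c is lower in pod and flower than in leaf, and miR167a, miR167c and miR167e are higher in seed than in pod. miR167e is also higher in seed than in leaf and, near the threshold, in flower than in leaf. miR167k passed the minimum mean through the flowers alone, so its filled points against flower are a description and support nothing.

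Seeds had more of the 3 abundant members than pods. miR167e averaged 26951 ± 7355 TP5M in seed and 3266 ± 5488 in pod (SD, n = 3 each), a log2 difference of 5.85 ± 1.21 SE (adjusted p = 0.00263). miR167c averaged 741 ± 373 TP5M in seed and 77.1 ± 35.7 in pod (SD, n = 3 each), with a log2 difference of 3.15 ± 0.79 (adjusted p = 0.00888). miR167a averaged 1704 ± 71.0 TP5M in seed and 278 ± 12.1 in pod (SD, n = 3 each), a log2 difference of 2.60 ± 0.75 (adjusted p = 0.0218). In each of these 3 members every seed was above every pod. For miR167k the log2 difference was 0.64 ± 0.49 (adjusted p = 0.392). So 3 of 4 members rose, with a median log2 difference of 2.87, beside 16.3% of all sequences called, 4.03% called higher, 12.3% called lower and an all-sequence median of −0.64. Seeds and pods did not overlap in 50.1% of all sequences.

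The seed and pod contrast depended on single libraries and on the tool. miR167a lost its call without any 1 of the 6 seed and pod libraries (adjusted p = 0.0506 to 0.0709), though its log2 difference stayed between 2.56 and 2.63. miR167c lost it without the seed of week 10 (log2 2.79, adjusted p = 0.0558). For miR167e the log2 difference was 8.05 without the pod of week 1 (adjusted p = 7.43e-07), and edgeR on recovered reads gave 3.04 (adjusted p = 0.102). With a term for the 6 libraries that share 3 extra sequences, all 3 pods among them, miR167a and miR167c were not called (adjusted p = 0.216 and 0.0719). Their log2 differences did not shrink with it, at 2.77 for miR167a and 3.92 for miR167c. Leaf is the only organ with libraries in and out of that set, so the term is estimated from leaves alone.

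The pods themselves were split. At week 1 miR167e had 9603 TP5M and M4031-5p 18263, above the 5 days flower with 3126 and 5657 TP5M. At week 2 the pod had 125 and 184 TP5M, so miR167e was 76.8-fold lower than at week 1 (95% counting interval 65.1 to 91.3). At week 3 it had 70.7 and 88.1 TP5M, which for miR167e is 136-fold below week 1 (107 to 175). miR167c went the other way, with 41.4, 77.1 and 113 TP5M at weeks 1, 2 and 3, and was 2.72-fold higher at week 3 than at week 1 (1.93 to 3.90). Each stage is 1 library, so these intervals cover counting error only.

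**Figure D3:**
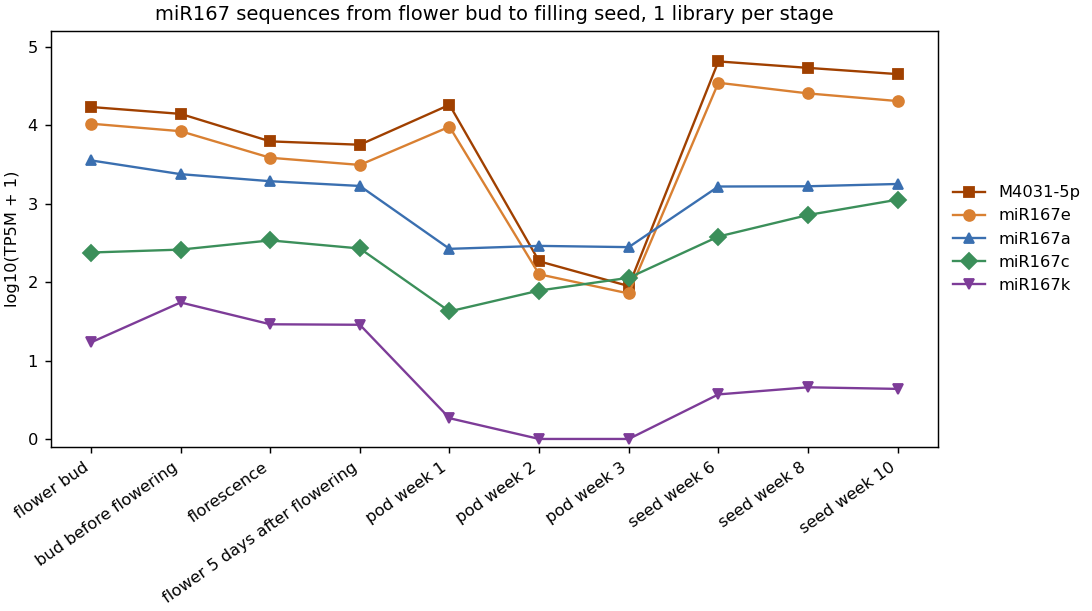
Level as log10(TP5M + 1) of 4 members and the 22 nt M4031-5p from flower bud to seed of week 10, with 1 library per stage and florescence on another date left out. miR167e and M4031-5p are 76.8-fold and 99.5-fold lower in the pod of week 2 than in that of week 1 and highest in seed at week 6, while miR167a is at 265 to 289 TP5M in the pods.

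Over the seed weeks, miR167c and miR167e moved apart. miR167c had 381, 717 and 1126 TP5M at weeks 6, 8 and 10, and was 2.96-fold higher at week 10 than at week 6 (95% counting interval 2.64 to 3.32). miR167e was 1.71-fold lower at week 10 than at week 6 (1.68 to 1.74), and M4031-5p 1.45-fold lower (1.43 to 1.47). The seeds still held far more miR167e than miR167c at week 10, 20399.7 against 1126 TP5M.

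In seed against leaf, 1 of 4 members was called, miR167e, and it was higher in seed. miR167e averaged 26951 ± 7355 TP5M in seed (SD, n = 3) and 1139 ± 312 in leaf (SD, n = 6), 23.7-fold higher, with a log2 difference of 4.57 ± 1.04 (adjusted p = 0.00484) and no overlap. It was called with each library left out in turn. The background was 16.3% of all sequences called and 6.72% called higher and 9.58% lower, with an all-sequence median of −0.38. miR167c averaged 741 ± 373 TP5M in seed and 2802 ± 1910 in leaf (log2 −1.66 ± 0.68, adjusted p = 0.107), and the groups overlapped. miR167a averaged 1704 ± 71.0 TP5M in seed and 719 ± 321 in leaf (log2 1.37 ± 0.65, adjusted p = 0.156), with every seed above every leaf. Libraries did not overlap in 16.1% of all sequences. miR167k had a log2 difference of 0.63 (adjusted p = 0.31), and edgeR called it higher in seed on 9 reads in seed and 2 in leaf (log2 2.90, adjusted p = 0.038).

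No member that passed the minimum mean outside the flowers was called in seed against flower. miR167k, which passed through the flowers, averaged 3.20 ± 0.45 TP5M in seed (SD, n = 3) and 25.6 ± 19.0 in flower (SD, n = 5), a log2 difference of −1.62 ± 0.44 (adjusted p = 0.0111). The flower library of the other date, with 2.47 TP5M, lay below all seeds. The call was lost with edgeR and TMM (log2 −2.14, adjusted p = 0.0852). Of all sequences 29.7% were called, 4.37% higher and 25.4% lower, with a median of −0.84. miR167c averaged 741 ± 373 TP5M in seed and 234 ± 100.7 in flower without overlap (log2 1.67 ± 0.71, adjusted p = 0.0774). It was called with TMM scaling (log2 2.41, adjusted p = 0.00793). miR167e averaged 26951 TP5M in seed and 6967 ± 3273 in flower, also without overlap (log2 2.07 ± 1.08, adjusted p = 0.146). Without the pod of week 1 it was called at the same log2 difference of 2.07 (adjusted p = 0.0158), through a smaller shared spread. No overlap was found in 45.7% of all sequences. miR167a averaged 1704 TP5M in seed and 2001 ± 1138 in flower (log2 0.05, adjusted p = 0.983).

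Pod means were below flower means for all 4 members, and none of miR167a, miR167c and miR167e was called. miR167k, which passed the minimum mean through the flowers, averaged 0.28 ± 0.48 TP5M in pod (SD, n = 3), from 1 read, and 25.6 ± 19.0 in flower (SD, n = 5), with a log2 difference of −2.25 ± 0.44 (adjusted p = 0.00598). It lost the call with the term for 6 libraries (log2 −2.23, adjusted p = 0.0894). The background was 2.02% called and 0.672% called higher and 1.34% lower, with a median of −0.17. miR167a averaged 278 ± 12.1 TP5M in pod and 2001 ± 1138 in flower without overlap, 7.21-fold lower (log2 −2.55 ± 0.67, adjusted p = 0.0578). Its adjusted p was 0.00448 without the florescence library of the other date, where miR167a stood at 430.2 TP5M. Pods and flowers did not overlap in 18.5% of all sequences. miR167e had a log2 difference of −3.78 ± 1.08 (adjusted p = 0.0717), and of −5.98 without the pod of week 1 (adjusted p = 1.62e-05). miR167c had −1.48 (adjusted p = 0.359).

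Pods had far less miR167c than leaves. It averaged 77.1 ± 35.7 TP5M in pod (SD, n = 3) and 2802 ± 1910 TP5M in leaf (SD, n = 6), 36.4-fold lower, with a log2 difference of −4.82 ± 0.68 (adjusted p = 9.86e-05). The highest pod had 113 TP5M and the lowest leaf 634. Within the 6 libraries that share extra sequences, the pods had 41.4 to 113 TP5M and the 3 leaves 1155 to 4689. It was 1 of 4 members called, beside 16.8% of all sequences called, 12.3% higher, 4.54% lower and a median of 0.12. Pods and leaves did not overlap in 15.3% of all sequences. miR167a (log2 −1.22, adjusted p = 0.232), miR167e (log2 −1.28, adjusted p = 0.493) and miR167k (log2 −0.01, adjusted p = 0.995) did not pass. Without the pod of week 1, miR167e did, with a log2 difference of −3.48 (adjusted p = 0.00263), whereas edgeR on all libraries gave 1.52.

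Flowers differed from leaves in opposite directions by member. Flowers (n = 5) averaged 234 ± 100.7 TP5M of miR167c and leaves (n = 6) 2802 ± 1910 TP5M (SD), 12.0-fold lower, with a log2 difference of −3.34 ± 0.59 (adjusted p = 0.000721). The highest flower had 339.9 TP5M and the lowest leaf 634. miR167k averaged 25.6 ± 19.0 TP5M in flower and 0.31 ± 0.49 in leaf, from 2 reads (log2 2.25 ± 0.36, adjusted p = 0.00048). miR167e averaged 6967 ± 3273 TP5M in flower and 1139 ± 312 in leaf, 6.12-fold higher (log2 2.50 ± 0.89, adjusted p = 0.0472), without overlap. miR167a averaged 2001 ± 1138 TP5M in flower and 719 ± 321 in leaf (log2 1.32 ± 0.56, adjusted p = 0.0874), and the other-date florescence at 430.2 TP5M lay among the leaves. Of the 3 members that pass the minimum mean without the flowers, 1 rose and 1 fell, beside 24.9% of all sequences called, 21.2% higher and 3.7% lower, with a median of 0.43. Flowers and leaves did not overlap in 9.92% of all sequences.

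The miR167c difference between flower and leaf was called under every alternative run, but was smaller against new leaf only (log2 −2.28, adjusted p = 0.0104). That between pod and leaf was −3.75 against new leaf only (adjusted p = 0.000878). Outside the 6 libraries that share extra sequences, flowers had 68.0 to 339.9 TP5M and the 3 leaves 634 to 4761. The miR167e call was near the threshold. It was lost with TMM scaling (log2 2.08, adjusted p = 0.126), with edgeR and TMM (0.0769) and without the filter (0.0947). It was also lost against new leaf only (0.0916), with the term for 6 libraries (log2 2.84, adjusted p = 0.0621) and with 4 organs in the fit (0.0504). edgeR without TMM kept it. Leaving out any single flower or seed library, or most single leaf libraries, lost it too. There, the highest adjusted p was 0.102 (flower bud left out). For miR167a the adjusted p was 0.018 without the florescence of the other date (log2 1.80).

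The 2 florescence libraries differed by more than counting error in every member. On the other date miR167a had 430.2 TP5M against 1937 in the florescence library, 4.50-fold lower (95% counting interval 4.01 to 5.07). miR167c had 68.0 against 339.9 TP5M, 5.00-fold lower (3.73 to 6.80), and miR167k 2.47 against 28.0, 11.3-fold lower (2.80 to 99.2). miR167e had 8940.3 against 3858 TP5M, 2.32-fold higher (2.22 to 2.42). From flower bud to 5 days after flowering, miR167a was 2.12-fold lower (2.00 to 2.24) and miR167e 3.36-fold lower (3.23 to 3.49), while the miR167c ratio was 1.13 (0.948 to 1.34).

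Leaf age separated miR167c and miR167a in opposite directions. Old and senescent leaves averaged 4516 ± 364 TP5M of miR167c and new leaves 1089 ± 426 (SD, n = 3 each), 4.15-fold higher in old leaves and without overlap. For miR167a, old and senescent leaves averaged 465 ± 149.9 TP5M and new leaves 973 ± 205 (SD, n = 3 each), 2.09-fold lower in old leaves and again without overlap. No test was run on these groups, in which 24.2% of all sequences did not overlap, 12.1% higher and 12.1% lower. At trefoil, old leaf had 2.77-fold as much miR167c as new leaf (95% counting interval 2.60 to 2.96) and 1.37-fold less miR167a (1.21 to 1.54). At flower bud differentiation, where both leaves belong to the 6 libraries with extra sequences, the folds were 4.06 (3.83 to 4.31) for miR167c and 1.95 (1.77 to 2.15) for miR167a in the same directions. miR167e averaged 1301 ± 234 TP5M in old and 976 ± 329 in new leaf, with overlap.

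Cotyledons showed the same pair of directions with age. Old cotyledon at trefoil had 1.25-fold more miR167c than germination cotyledon (8401 against 6730.25 TP5M, 95% counting interval 1.21 to 1.29) and 3.13-fold less miR167a (823 against 2579.6 TP5M, 2.90 to 3.39). miR167e was 2.86-fold lower (6257 against 17884 TP5M, 2.78 to 2.94). In stem, miR167a was 4.98-fold lower at trefoil than at germination (176 against 874 TP5M, 4.27 to 5.84) and miR167e 7.85-fold lower (16.4 against 128 TP5M, 4.80 to 13.6). The flower bud and the leaf bud, both rich in miR167a (3569.9 and 4670.05 TP5M), differed 19.6-fold in miR167e (10495 against 535 TP5M, 17.7 to 21.8).

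The 22 nt form of miR167e outnumbered the 21 nt form in every library but the stems. M4031-5p had 65351, 54066 and 45013 TP5M in seeds of weeks 6, 8 and 10 and 18263, 184 and 88.1 TP5M in pods of weeks 1, 2 and 3, and 5657 to 17573 TP5M in flowers and 1925 to 3563 in leaves. Its differences ran with those of miR167e. The log2 difference was 6.31 ± 1.24 for seed minus pod (adjusted p = 0.00183) and 4.39 ± 1.07 for seed minus leaf (adjusted p = 0.00777). For flower minus leaf it was 2.07 ± 0.92 (adjusted p = 0.102). Without the pod of week 1 that log2 difference was again 2.07, with an adjusted p of 0.00306 through a smaller shared spread. edgeR did not call seed minus pod (log2 3.15, adjusted p = 0.0951).

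As a share of both lengths, the 22 nt form made up 67.6% to 72.0% in leaves, 65.2%, 67.9% and 68.8% in seeds of weeks 6, 8 and 10, and 61.8% to 66.3% in flowers. It was 68.1% in old cotyledon and 57.6% in germination cotyledon. The stems had 43.8% (95% Wilson interval 28.2 to 60.7, 32 reads) at trefoil and 38.0% (32.1 to 44.2, 245 reads) at germination. The trefoil stem interval overlaps those of germination cotyledon, root (62.5%), leaf bud (59.6%) and the pods of weeks 2 and 3 (59.5% and 55.5%).

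miR167g followed miR167c, with a Spearman correlation of 0.93 over the 23 libraries, given as a description. It averaged 111.6 ± 14.4 TP5M in seed, 12.1 ± 10.2 in pod, 27.8 ± 5.85 in flower and 258 ± 181 in leaf. It was called lower in pod than in leaf (log2 −3.79 ± 0.56, adjusted p = 0.00016) and in flower than in leaf (log2 −2.70 ± 0.48, adjusted p = 0.000778). It was called higher in seed than in pod (log2 2.93 ± 0.65, adjusted p = 0.00411) and than in flower (log2 1.84 ± 0.58, adjusted p = 0.0237), a call lost without any 1 of the seeds (adjusted p = 0.0539 to 0.0698). The seed and pod call was lost with the term for 6 libraries (log2 3.09, adjusted p = 0.0978). Old and senescent leaves held 389 ± 158 TP5M and new leaves 126 ± 72.7 (SD, n = 3 each).

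miR167g is also 1 base from the far more abundant M4031-5p, with T21G. In 9 libraries, the seeds, the flowers and the pod of week 1, miR167g stood at 0.129% to 0.605% of M4031-5p, against 1.57% to 21.4% in the other 14. Likewise miR167c is 1 base from miR167e, with T21G, and stood under 1% of it in the pod of week 1 (0.431%) and in florescence on the other date (0.76%). miR167k, with A14C, was at most 0.883% of miR167e. The share of such reads that are misread bases of the abundant neighbour was not tested. Within the pair of miR167c and miR167g, the 22 nt share was 36.4% (95% Wilson interval 26.5 to 47.5, 77 reads) in the pod of week 1, 28.6% (19.7 to 39.5, 77 reads) in florescence on the other date and 24.9% (21.5 to 28.6) in seed at week 6, against 5.16% to 13.7% in leaves. The stems, where M4031-5p was scarce, had 33.3% (15.2 to 58.3, 15 reads) at germination and 30.0% (10.8 to 60.3, 10 reads) at trefoil.

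**Figure D4:**
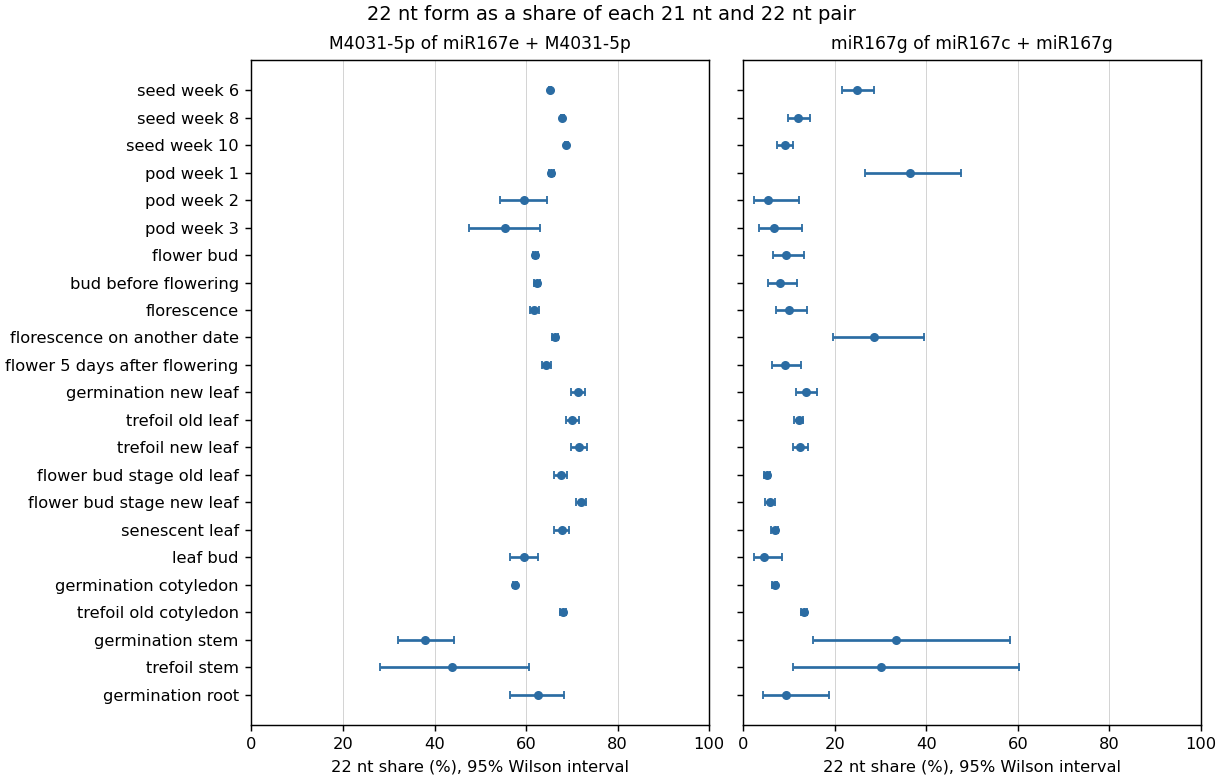
Share of the 22 nt form in the pair of miR167e and M4031-5p (left) and of miR167c and miR167g (right) in each library, with 95% Wilson intervals that cover counting error only. By point estimate, the e pair is mostly 22 nt outside the stems, and the c pair mostly 21 nt in every library. The c pair intervals of the stems, from 15 and 10 reads, reach up to 58.3% and 60.3%.

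Together the 6 sequences with the miR167 seed took 26.4% of the table's signal in seed at week 6, 18.5% at week 8 and 13.1% at week 10. Their sum was 102425, 82100.5 and 68440.0 TP5M in those seeds, 28197, 679 and 558 TP5M in pods of weeks 1, 2 and 3, and 10789 to 31470.4 in flowers. Leaves had 4516 to 10282 TP5M, or 1.27% to 1.96% of the table's signal. The trefoil stem had the least, 214 TP5M or 0.04%. Root had 479 TP5M.

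The make-up of that pool changed with the organ. The pair of miR167e and M4031-5p led in 17 libraries, with 95.6% to 97.9% of the pool in seeds and 81.2% to 98.1% in flowers. miR167a led in 4 libraries, at 82.1% in trefoil stem, 79.9% in germination stem, 74.5% in leaf bud and 49.9% in the pod of week 3. The pair of miR167c and miR167g led in 2, at 58.9% in senescent leaf and 51.4% in old leaf at bud stage. In the other leaves it held 16.3% to 45.3%.

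**Figure D5:**
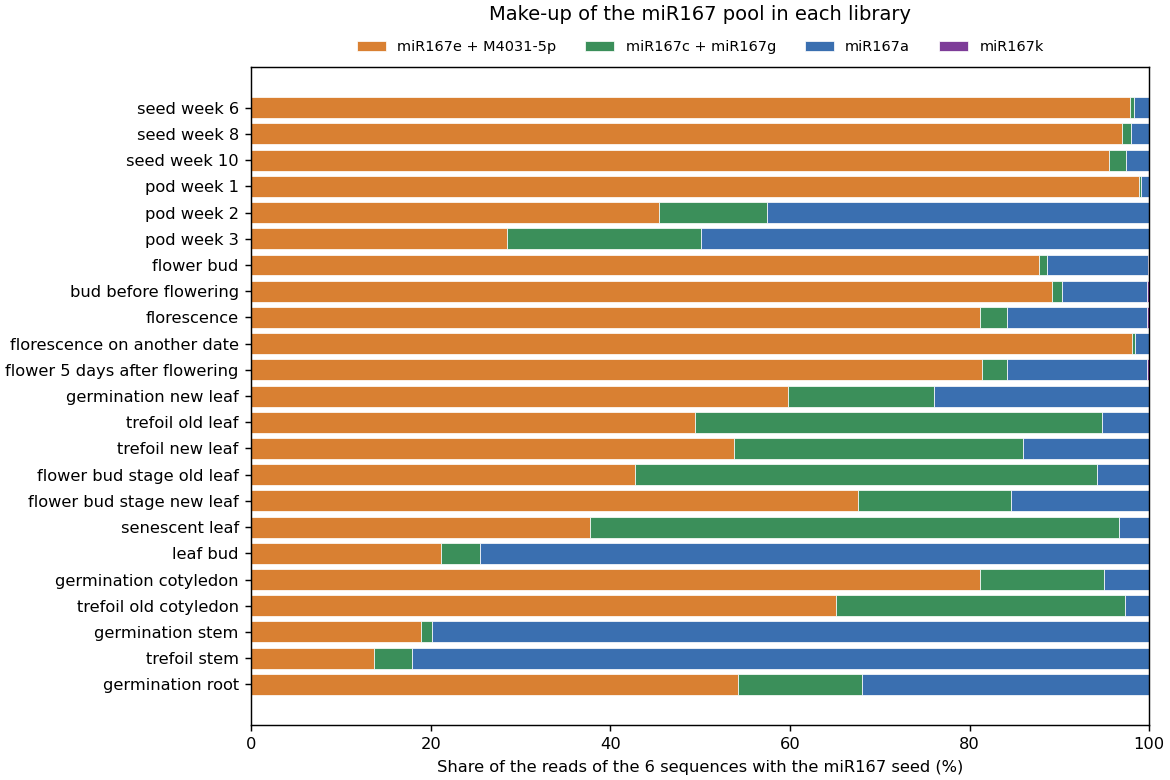
Share of miR167e with M4031-5p, miR167c with miR167g, miR167a and miR167k among the reads of the 6 sequences with the miR167 seed, by library. The miR167e pair fills seeds and flowers, the miR167c pair is largest in old and senescent leaves, and miR167a leads in stems, leaf bud and the pod of week 3.

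Among the member hairpins, opposite arms were listed for those of miR167e and for 2 of the miR167a loci, and little came from them. The 3p arm of the miR167e hairpins, M4031-3p, is a 20 nt sequence with another seed.
M4031-3p: gATCATGTggcagtttcacc
It had 208, 147 and 91.5 TP5M in seeds of weeks 6, 8 and 10, 39.7, 0 and 2.05 TP5M in pods of weeks 1, 2 and 3, at most 17.0 in flowers and at most 22.6 in leaves. That was 0.14% to 0.21% of the tags of the miR167e hairpins in seeds. It was called higher in seed than in leaf (log2 3.54 ± 0.60, adjusted p = 0.000612), pod (log2 3.65 ± 0.70, adjusted p = 0.0015) and flower (log2 3.48 ± 0.62, adjusted p = 0.000548). edgeR did not call seed minus pod (log2 3.40, adjusted p = 0.0856, and 0.065 with TMM). The 3p arm at 2 of the miR167a loci, M0790-3p, reached at most 8.28 TP5M. Of the entries named miR167h and miR167i, on the strand opposite to the miR167e hairpins, miR167h was listed at 0 throughout and miR167i reached 3.65 TP5M.

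The 4 members differed in how they ranked the libraries. Spearman correlations over the 23 libraries, which share depth and organ make-up and are given as a description, were 0.744 for miR167a and miR167k, 0.73 for miR167e and miR167k and 0.536 for miR167a and miR167e. They were 0.347 for miR167c and miR167e, 0.313 for miR167a and miR167c and 0.078 for miR167c and miR167k. The pair of miR167e and M4031-5p reached 0.991.

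The sequences most like each member were found by the same measure among 587. Members were left out, as were sequences related to them by name, overlapping hairpin or 18 shared bases in a row. M1862-3p (0.844), M2396-5p (0.835) and M3495-3p (0.781) were nearest to miR167a. M7631-3p (0.817), M5463-3p (0.707) and M6889-3p (0.69) were nearest to miR167c. M5008-3p (0.749), M5855-5p (0.713) and M0775-5p (0.706) were nearest to miR167e, and M0470-3p (0.757), miR171d (0.741) and miR1520l (0.739) to miR167k. The nearest to miR167c lies on a hairpin (chr20:2126823-2127185, minus strand) whose 5p arm shares 19 bases in a row with miR167c. M7631-3p stayed among the 587 although that 5p arm was left out as related. Its 0.817 therefore cannot be read as likeness outside the family. This 5p arm, M7631-5p, named here after its values were seen, is shown because its shared part starts 2 bases further in, which moves the seed.
M7631-5p: aAGCTGCCagcatgatctggta
M7631-5p averaged 27.8 ± 15.9 TP5M in seed, 1.23 ± 1.34 in pod, 12.1 ± 9.98 in flower and 38.2 ± 48.3 in leaf. Since it was chosen for its likeness to miR167c, no test of it is given.

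A list of 3 other families of auxin signalling was read beside miR167. It holds miR160, which targets other auxin response factors, miR390, which starts the TAS3 small RNAs that act on ARF genes, and miR393, which targets auxin receptors. Of 14 distinct sequences 7 passed the minimum mean. In seed against pod, limma called 0 higher and 1 lower, with a median log2 difference of −1.15, where 4.03% of all sequences were higher and 12.3% lower (median −0.64). An unadjusted p under 0.05 was found for 3, and edgeR called 1. In seed against leaf it called 0 higher and 2 lower (median −0.18), where 6.72% of all sequences were higher and 9.58% lower (median −0.38). There, 2 had an unadjusted p under 0.05, edgeR called 2 and limma with TMM 1. In seed against flower it called 0 higher and 4 lower (median −1.70), where 4.37% of all sequences were higher and 25.4% lower (median −0.84). There, 4 had an unadjusted p under 0.05, edgeR called 3, and 2 were called with TMM in either tool. With 7 sequences, a count of 0 higher is close to these shares. In flower against leaf, 2 were higher (median 1.23, with 21.2% of all sequences higher), and edgeR called 0 of the 7. In pod against flower and in pod against leaf limma called 0, as did edgeR with or without TMM, with 1 sequence at an unadjusted p under 0.05 in each.

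miR390a-5p averaged 45.3 ± 13.8 TP5M in seed (SD, n = 3) and 659.9 ± 336 in flower (SD, n = 5), with a log2 difference of −3.61 (adjusted p = 0.00325), and against leaf with 354 ± 234 TP5M it was −2.38 (adjusted p = 0.0466). The call against leaf was lost with TMM (adjusted p = 0.0639), with the term for 6 libraries (0.25) and with most single libraries left out, where the highest adjusted p was 0.151 (without the seed of week 8). miR160a-3p, the opposite arm of a miR160 hairpin, averaged 2.04 ± 0.77 TP5M in seed, 22.6 ± 11.7 in pod, 25.5 ± 11.6 in flower and 15.5 ± 3.45 in leaf. Its log2 difference was −1.88 for seed minus pod (adjusted p = 0.00388), and −2.07 with the term for 6 libraries (adjusted p = 0.0719). It was −2.02 for seed minus flower (adjusted p = 0.000646) and −1.53 for seed minus leaf (adjusted p = 0.00604). miR393c averaged 1432 ± 111 TP5M in flower and 619 ± 315 in leaf (log2 1.49, adjusted p = 0.0335), and miR390b-5p 23.1 ± 10.5 in flower and 5.76 ± 7.59 in leaf (log2 1.52, adjusted p = 0.0132). edgeR called neither (adjusted p = 0.0747 and 0.0671), and limma with TMM did not call miR393c (0.151).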

How the data were processed

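Small RNA of 15 to 30 nt was sequenced from 23 libraries, per the labels' protocols, which give 16 PCR cycles. The deposited values are a signal in tags per 5000000 tags (TP5M), scaled by the authors, per the file headers. The submitters' processing notes list BWA. Its settings and the genome build are not given in the sources read. Of 3933 entries (29 without coordinates), those with the same sequence were merged by their maximum, which left 2839 sequences. 580 stood in several entries, and the entries of 2 disagreed. The step between low values gave the worth of 1 read, and each of the 28843 values worth at most 200 reads came out whole within 0.1 (100.0%).

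limma 3.58.1 in R 4.3.3 was fitted to log2(TP5M + 5) with 8 organ means over the 23 libraries, empirical Bayes moderation with a trend, and Benjamini-Hochberg adjustment over the 595 sequences that averaged 5 TP5M or more. This scale understates differences of rare sequences. A fold is the ratio of 2 mean TP5M values. edgeR 4.0.16 (quasi-likelihood) on recovered reads was an alternative, since the deposited signal is no count. It called 95 sequences in flower minus leaf, 4 in pod minus flower, 84 in seed minus pod, 160 in seed minus leaf, 56 in pod minus leaf, 153 in seed minus flower and 226 over the 4 organs. Ratios of single libraries have exact 95% binomial intervals on recovered reads and shares have 95% Wilson intervals, and both cover counting error only, as PCR copies cannot be told apart.

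The members and lists were chosen with earlier results of these data known. Named sequences are the members, the 3 most abundant sequences related to miR167, the most abundant sequence and the largest called difference of each auxin family in each comparison, and the 3 sequences most like each member. M7631-5p, M0790-3p, miR167h and miR167i lie outside that rule and were named after their values were seen. No locus coordinates were taken from RefSeq, and target sites and ARF messengers were not analysed here.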

Additional observations from a re-analysis of the deposited data

How the results depend on the processing

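miR167c in flower and pod against leaf, and miR167e in seed against leaf, kept their calls in every setting run. Of the results for members and related sequences under other settings, 369 kept direction and side of the threshold, 9 gained a call, 19 lost one and 17 reversed; with single libraries left out these were 662, 11, 23 and 18. Where a cause is not named, the cause was not tested. Reversed values were small or uncalled: miR167a seed minus flower was −0.23 with edgeR; pod minus leaf was 1.52 with edgeR and 1.43 with edgeR and TMM for miR167e, 1.21 and 1.11 for M4031-5p, and 0.01 for miR167k with the term for 6 libraries, a setting chosen after seeing the data. M4031-3p gave −0.01 (pseudocount 20), −0.11 (TMM), −0.14 (edgeR) and −0.34 (edgeR and TMM) for flower minus leaf, 0.06, 0.65 and 0.87 (pseudocount 20, edgeR, edgeR and TMM) for pod minus flower, and 0.05, 0.51, 0.53 and 0.42 (the same settings and new leaf only) for pod minus leaf. With single libraries left out, ranges that crossed 0 were −0.43 to 0.33 (miR167a seed minus flower), −3.48 to 0.01 (miR167e pod minus leaf), −0.08 to 0.03 (miR167k pod minus leaf), and for M4031-3p −0.12 to 0.29 (flower minus leaf), −1.15 to 0.43 (pod minus flower) and −1.08 to 0.50 (pod minus leaf).

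Members called in pod minus flower were 2 with pseudocount 1, with 4 organs in the fit and with new leaf only. There, limma with the term for 6 libraries called 0, and edgeR without the term called 1. In seed minus pod, 1 was called with that term. In seed minus leaf, 2 were called by edgeR with or without TMM. In seed minus flower, 0 were called with a minimum mean of 20, which leaves miR167k untested. Limma with TMM and with new leaf only called 2 there. With single libraries left out, the counts were 2 to 3 in flower minus leaf and 1 to 3 in seed minus pod. They were 1 to 2 in the other comparisons. These counts include miR167k, which passed the minimum mean through the flowers alone, so its calls against flower support nothing. In the main fit it was the only member called in pod minus flower and in seed minus flower. The auxin list, with single libraries left out, had 1 to 2 calls in flower minus leaf and 0 in pod minus flower. It had 1 to 2 in seed minus pod, 1 to 2 in seed minus leaf and 0 to 1 in pod minus leaf. In seed minus flower it had 2 to 4, and in the F-test 2 to 5. Under other settings the auxin list had 1 call (no filter, minimum mean 20, TMM, new leaf only) or 0 (edgeR with or without TMM) in flower minus leaf; 0 (minimum mean 20, term) or 3 (new leaf only) in seed minus pod; 1 (minimum mean 20, TMM, term) in seed minus leaf; 1 (no filter, new leaf only) in pod minus leaf; 2 (minimum mean 20, TMM, edgeR and TMM) in seed minus flower; and 2 (minimum mean 20, TMM, edgeR and TMM) or 3 (edgeR, 4 organs in the fit) in the F-test. With single libraries left out, calls over all sequences were 108 to 212 in flower minus leaf and 6 to 35 in pod minus flower. Such calls were 58 to 118 in seed minus pod, 56 to 109 in seed minus leaf and 46 to 146 in pod minus leaf. They were 99 to 207 in seed minus flower and 194 to 284 in the F-test. Under other settings they were 87 (minimum mean 20) and 95 (edgeR) against 148 in flower minus leaf; 23 (no filter), 4 (edgeR), 5 (edgeR and TMM) and 35 (new leaf only) against 12 in pod minus flower; 205 (no filter), 17 (term for 6 libraries) and 149 (new leaf only) against 97 in seed minus pod; 233, 160 (edgeR) and 62 (term) against 97 in seed minus leaf; 60 (minimum mean 20), 56 (edgeR), 55 (edgeR and TMM) and 59 (term) against 100 in pod minus leaf; 304 (no filter) and 114 (minimum mean 20) against 177 in seed minus flower; and 401 and 148 against 235 in the F-test. TMM moved the median of all sequences to 0.12 in flower minus leaf, −0.33 in seed minus pod, −0.24 in seed minus leaf, 0.01 in pod minus leaf and −0.35 in seed minus flower, so differences are relative to the tag total. No paired analysis was possible, because replicate numbers only count the libraries within an organ and link none across organs. The 1 stage that flower and leaf share, bud stage, has a single flower library. Single libraries of 1 stage were compared by counting intervals only.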
